A study of Macaca mulatta with 28 samples.

Results

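The circadian clock genes examined here were the 10 entries of the count table whose gene symbol is CLOCK, ARNTL, PER1, PER2, PER3, CRY1, CRY2, NR1D1, NR1D2 or DBP, out of 16885 entries with a symbol. They were chosen by name and not by any measured value, and all 10 were listed once. Bulk RNA was sequenced from punches of the VTA (ventral tegmental area, where the dopamine neurons that project to the striatum arise) of 28 male wild-type rhesus macaques. Of these, 17 had drunk ethanol voluntarily and 11 were controls without ethanol, either yoked to a drinker for calories or only housed alike, with 1 library per animal. The drinkers had 12 months of open access for 22 hours a day, then periods of forced abstinence alternating with 3 months of renewed access, and tissue was taken after a last abstinence of 30 days. By the labels the drinkers comprised 1 low, 2 binge, 5 heavy and 9 very heavy drinkers, and animals are numbered below within their category. There were 16 animals in cohort 1, of which 8 were drinkers, and 12 in cohort 2, of which 9 were drinkers. The labels do not give the cohort, which was taken from the study's source data, and the 3 controls of cohort 2 were placed there by exclusion. The hour at which tissue was collected from each animal is not given in the sources used here. Drinking categories and cohorts were unevenly crossed: the low drinker and 4 of 5 heavy drinkers belonged to cohort 1, whereas both binge and 6 of 9 very heavy drinkers belonged to cohort 2.

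The mammalian clock is a transcriptional feedback loop. The activators CLOCK and BMAL1, the product of ARNTL, bind E-box sequences and drive the PER and CRY genes, whose proteins return to the nucleus and repress the activators. The nuclear receptors NR1D1 and NR1D2 (REV-ERB alpha and beta) repress ARNTL in a second loop, and DBP is an output factor that acts on D-box sequences. Transcripts of many of these genes rise and fall over the day in brain and peripheral tissue, so that a single time point per animal captures 1 phase of the cycle.

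Promoter sequence is shown for the 4 clock genes in which the 250 bases before the RefSeq gene start on Mmul_10 held a motif by which the clock is known to act. The motifs searched on both strands were the E-box CACGTG, its variant CACGTT (E-prime box), the D-box TTATGNAA, the cAMP response element TGACGTCA and the receptor half-site AGGTCA that NR1D proteins and RORs bind. Capitals mark matches, none of which overlap, and each sequence is written 5′ to 3′ on the strand of its gene, which for all 4 is the minus strand of the assembly.
PER1, chr16:7958480-7958729: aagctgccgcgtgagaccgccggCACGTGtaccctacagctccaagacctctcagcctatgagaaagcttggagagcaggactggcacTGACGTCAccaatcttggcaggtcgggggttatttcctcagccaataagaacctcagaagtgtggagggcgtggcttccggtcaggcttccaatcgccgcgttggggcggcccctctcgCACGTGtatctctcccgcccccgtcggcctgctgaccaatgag
PER3, chr1:216733090-216733339: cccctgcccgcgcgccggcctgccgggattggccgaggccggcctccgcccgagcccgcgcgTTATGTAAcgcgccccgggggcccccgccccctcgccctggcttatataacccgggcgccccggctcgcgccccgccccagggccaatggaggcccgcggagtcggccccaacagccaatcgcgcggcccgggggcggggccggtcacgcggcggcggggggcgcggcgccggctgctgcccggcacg
CRY2, chr14:19929635-19929884: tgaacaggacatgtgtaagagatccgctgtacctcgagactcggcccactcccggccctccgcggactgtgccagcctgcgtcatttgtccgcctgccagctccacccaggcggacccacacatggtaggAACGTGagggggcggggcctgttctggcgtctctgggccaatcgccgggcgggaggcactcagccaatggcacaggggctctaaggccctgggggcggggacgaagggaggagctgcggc
NR1D1, chr16:51239241-51239490: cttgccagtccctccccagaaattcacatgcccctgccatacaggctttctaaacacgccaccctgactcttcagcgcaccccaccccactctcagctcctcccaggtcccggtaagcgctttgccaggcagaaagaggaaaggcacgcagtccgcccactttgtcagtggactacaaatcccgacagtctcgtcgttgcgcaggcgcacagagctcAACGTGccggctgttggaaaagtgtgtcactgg
PER1 held 2 E-boxes, starting 227 and 43 bases before the gene start, and 1 cAMP response element. PER3 held 1 D-box, and CRY2 and NR1D1 each held 1 E-prime box. Among 20767 protein-coding promoters of the same length, 6.45% held an E-box, 4.55% an E-prime box, 2.55% a D-box, 1.47% a cAMP response element and 12.9% the receptor half-site, which none of the 10 clock genes held in this window. In 1000 bases before the start, an E-box was found for PER1, PER3, NR1D1 and NR1D2, against 16.3% of all promoters, and an E-prime box for CLOCK, ARNTL, CRY2, NR1D1 and DBP, against 18.3%. The receptor half-site was found there for 7 of the 10 genes (all but CLOCK, PER2 and CRY1), against 50.1% of all promoters, a D-box for PER1 and PER3 (12.6%) and a cAMP response element for PER1 and PER2 (2.19%). The window lies before the outermost start annotated for the gene, so where RefSeq lists several transcripts it may lie apart from other starts. A gene without a match here may hold one at another start. A match is a run of letters and not a measured binding site.

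Each gene symbol in the table stands for 1 Ensembl transcript, so that reads given to its other isoforms by Salmon are missing from the value, and a gene listed at 0 in an animal may still have been transcribed there. RefSeq annotates 30 transcripts for ARNTL, 14 for CLOCK, 12 for PER3, 7 for DBP, 5 for PER1, 3 for PER2, 2 for CRY1 and 1 each for CRY2, NR1D1 and NR1D2. Totals ranged from 12303914 to 27338669 counts per animal, and mitochondrial transcripts took 36.4% to 60.6% of them. The summed level of 10 dopamine neuron markers ranged from 40.8 to 1860 CPM (counts scaled to library size with TMM normalisation), so the punches differed widely in dopamine neuron RNA. In bulk tissue, fewer cells of a type and less RNA per cell cannot be told apart. All 10 clock genes passed the filter of at least 5 counts in at least 3 animals, which kept 13769 transcripts.

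How completely the clock genes were captured separated them into 2 sets. CRY1, CRY2, NR1D2 and DBP had at least 5 counts in every animal, and ARNTL was listed at 0 in 2 animals only. PER3 had counts in 20 of 28 animals, PER1 in 13, PER2 in 12, CLOCK in 10 and NR1D1 in 4. Zeros of this kind were not particular to clock genes: 60.5% of the transcripts kept had no animal at 0, but 9.11% had at least as many animals at 0 as CLOCK and 2.11% at least as many as NR1D1. Animals had between 1 and 5 of the 10 genes at 0, except the low drinker, which had 6.

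**Figure D1:**
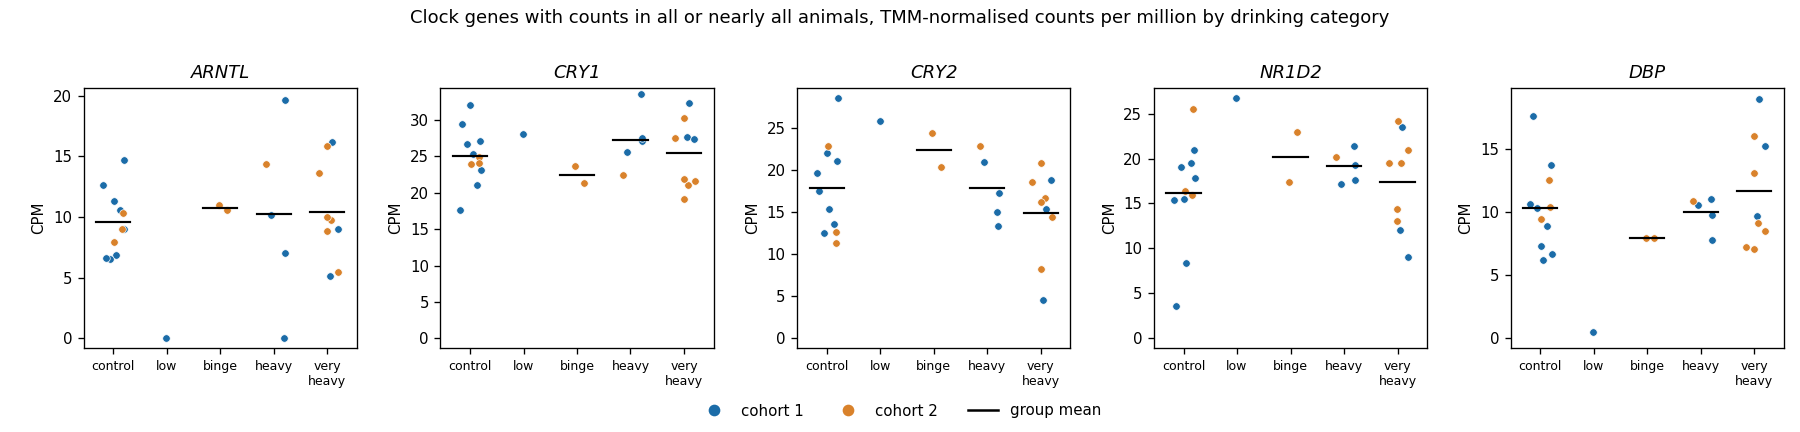
TMM-normalised levels in CPM (vertical axes, 1 scale per gene) of ARNTL, CRY1, CRY2, NR1D2 and DBP in 28 animals by drinking category, with 1 point per animal coloured by cohort and a line at the mean of each category with 2 or more animals. The control, heavy and very heavy categories overlap for every gene, and the low drinker lies below all other animals for DBP (0.532) and above them for NR1D2 (26.7).

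Drinkers and controls were compared first, to ask whether clock gene transcripts differed after drinking and abstinence. With edgeR's quasi-likelihood test over 13769 transcripts and Benjamini-Hochberg adjustment, 0% of transcripts and 0 of the 10 clock genes were called at an adjusted p of 0.05. At an unadjusted p under 0.05 there were 629 transcripts (4.57%) and none of the clock genes. With cohort as a covariate there were 972 transcripts (7.06%), among them PER2 (p = 0.00953, adjusted p = 0.486) and NR1D1 (p = 0.0185, adjusted p = 0.574), and again 0% were called. DESeq2 called 11 transcripts (0.08%), none of them a clock gene. The median log2 fold change of the 10 genes was -0.00, beside 0.00 over all transcripts, with 5 higher and 5 lower.

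ARNTL (chr14:52198730-52310849, minus strand) encodes the activator BMAL1. Drinkers lay between 0 and 19.7 CPM (median 10.04) and controls between 6.52 and 14.7 CPM (median 9.04). The log2 fold change of drinkers over controls was 0.03 (SE 0.47). The drinkers spread beyond the controls at both ends. The low drinker and heavy drinker 4 (listed at 0) and very heavy drinkers 1 (5.18 CPM) and 9 (5.50 CPM) lay below the lowest control, heavy drinker 1 (19.7 CPM) and very heavy drinkers 2 (16.2 CPM) and 8 (15.9 CPM) lay above the highest, and the other 10 drinkers lay within the range of the controls. In cohort 2 all 12 animals had counts, between 5.50 and 15.9 CPM.

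CLOCK (chr5:78085395-78206260, plus strand), the partner of BMAL1, had counts in 4 of 17 drinkers and 6 of 11 controls (Fisher's exact test, two-sided p = 0.124, adjusted p = 1.0 over the 5440 transcripts that were at 0 in some animals). Where it had counts it lay between 1.68 and 5.32 CPM in drinkers and between 2.10 and 4.14 CPM in controls. In cohort 2 it had counts in all 3 controls but in only 1 of 9 drinkers, very heavy drinker 8 with 3.67 CPM (exact p = 0.0182, adjusted p = 1.0). In cohort 1 it had counts in 3 of 8 drinkers, all of them heavy, and in 3 of 8 controls. The exact test called 0% of transcripts in each of these comparisons. In cohort 2, with 3 controls and 9 drinkers, it can pass the adjustment only if very many transcripts share its lowest p. The 0% there was therefore nearly fixed by the group sizes and cannot decide for CLOCK.

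The PER genes encode repressors that act together with the CRY proteins, and PER1 and PER2 are also induced by light and hormonal signals. PER1 (chr16:7942485-7958479, minus strand) reached at most 20 counts in any animal, too few to compare levels, and had counts in 7 of 17 drinkers and 6 of 11 controls, or at least 5 counts in 6 drinkers and 3 controls. PER3 (chr1:216647235-216733089, minus strand) had counts in 12 of 17 drinkers, up to 10.9 CPM in heavy drinker 4, and in 8 of 11 controls, up to 4.54 CPM. Neither gene separated drinkers from controls, with exact p = 0.7 for PER1 and 1.0 for PER3.

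PER2 (chr12:125647620-125693979, minus strand) was unevenly distributed over drinking and cohort. None of the 8 drinkers of cohort 1 had a count. Of the 8 controls of cohort 1, 4 had counts, namely control 1 with 13, control 3 with 54, control 6 with 13 and control 7 with 294. In cohort 2, 5 of 9 drinkers had counts, from 1.16 to 10.9 CPM, and all 3 controls did, from 1.39 to 4.24 CPM. The gene was thus listed at 0 in all 5 heavy drinkers, of which 1 was in cohort 2, but had counts in 4 of 9 very heavy drinkers, all in cohort 2.

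The difference between drinkers and controls of cohort 1 in the number of animals with PER2 did not reach the threshold (exact p = 0.0769, adjusted p = 1.0). Among drinkers, PER2 had counts in 0 of 8 animals of cohort 1 and 5 of 9 of cohort 2 (exact p = 0.0294, adjusted p = 0.374), in a comparison in which 10.6% of transcripts had an unadjusted p under 0.05 and 0% were called. In the fits to counts, edgeR did not call PER2 within cohort 1 (adjusted p = 0.0788, where 0.959% of transcripts were called, and 0.0382% in a fit of that cohort alone), while DESeq2 did (adjusted p = 0.00431, where 3.73% were called). The difference between the cohorts in the effect of drinking gave PER2 an adjusted p of 0.375 with edgeR, which called 0.0145% of transcripts, and 0.219 with DESeq2, which called 1.13%. No fold change is given, because a group listed wholly at 0 leaves the fitted value dependent on the prior count.

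**Figure D2:**
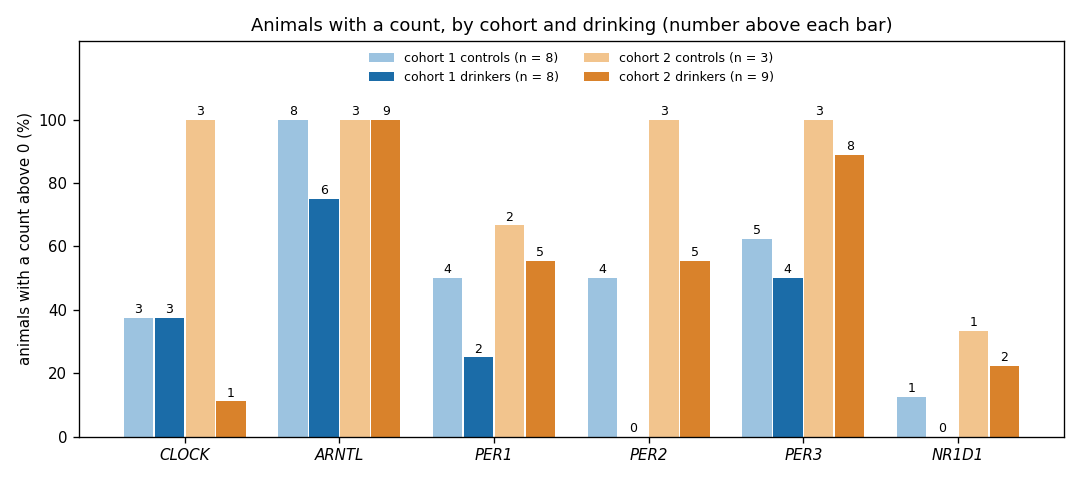
Percentage of animals with a count above 0 (vertical axis) for the 6 clock genes that were listed at 0 in some animals, by cohort and drinking, with the number of animals above each bar. PER2 had counts in 0 of 8 drinkers of cohort 1 and 5 of 9 of cohort 2, and CLOCK in 3 of 3 controls and 1 of 9 drinkers of cohort 2.

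CRY1 (chr11:106673985-106780347, minus strand), the repressor that holds the CLOCK and BMAL1 complex inactive late in the cycle, was the least variable clock gene, with a coefficient of variation of 15.8% over all animals. It measured 25.8 ± 4.17 CPM in drinkers (SD, n = 17) and 25.1 ± 3.92 CPM in controls (SD, n = 11), a log2 fold change of 0.04 (SE 0.09). CRY2 (chr14:19891165-19929634, minus strand), its paralog, measured 17.3 ± 5.43 CPM in drinkers and 17.9 ± 5.43 CPM in controls, a log2 fold change of -0.05 (SE 0.19). Drinkers ranged from 4.61 to 25.9 CPM for CRY2 and controls from 11.3 to 28.6 CPM. Only very heavy drinkers 1 (4.61 CPM) and 7 (8.20 CPM) fell below the lowest control, and the other 15 drinkers lay within the range of the controls.

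NR1D2 (chr2:23677388-23713771, minus strand), a repressor of ARNTL, had the largest log2 fold change of the 4 genes with counts in every animal, 0.21 (SE 0.19), with adjusted p = 1.0 as for all clock genes. It was 0.10 (SE 0.15) without control 8. Drinkers measured 18.8 ± 4.64 CPM and controls 16.2 ± 5.92 CPM. The controls reached lower, from 3.59 CPM in control 8 to 25.5, and the drinkers ranged from 9.01 to 26.7. In the animals of cohort 1 the log2 fold change was 0.29 (SE 0.25), or 0.14 without control 8 and 0.19 without the low drinker, and in those of cohort 2 it was -0.01 (SE 0.34).

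NR1D1 (chr16:51230996-51239240, minus strand), its paralog, was listed at 0 in 24 animals. The 4 others were control 8 with 437 counts, heavy drinker 5 with 93, control 9 with 76 and very heavy drinker 7 with 54. Control 8, at 20.6 CPM, stood far above the rest, and the same animal had the lowest NR1D2 of all 28 animals (3.59 CPM) and the highest DBP of the controls (17.6 CPM). This association rests on 1 animal.

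DBP (chr19:48614219-48630661, minus strand), an output gene driven by CLOCK and BMAL1, measured 10.1 ± 4.15 CPM in drinkers and 10.3 ± 3.34 CPM in controls, a log2 fold change of -0.03 (SE 0.26). Its annotated span overlaps SPHK2 on the opposite strand, and those of PER3, PER2 and ARNTL also overlap a gene on the opposite strand. The strand setting of the quantification is not given in the sources used here, so reads of such pairs may not be told apart.

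Drinking categories were compared next, in a fit with cohort as a term. Very heavy drinkers against controls, heavy drinkers against controls and very heavy against heavy drinkers each gave 0% of transcripts called and 0 of the 10 clock genes, with 894, 1003 and 863 transcripts (6.49%, 7.28% and 6.27%) at an unadjusted p under 0.05. Among these were 1, 1 and 0 clock genes, NR1D1 for very heavy drinkers (adjusted p = 0.728) and PER2 for heavy drinkers (adjusted p = 0.522). DESeq2 called 0.347%, 0.642% and 0.568% of transcripts in these comparisons and no clock gene. CRY2 in heavy drinkers was 17.2, 21.0, 13.3, 15.0 and 22.8 CPM in animals 1 to 5. In very heavy drinkers it ranged from 4.61 to 20.9 CPM with a median of 16.2, beside a median of 17.5 CPM in controls, and the log2 fold change of very heavy drinkers over controls was -0.31 (SE 0.24, adjusted p = 0.906), or -0.11 (SE 0.20) without very heavy drinker 1. NR1D2 was narrowly spread in the heavy drinkers, from 17.1 to 21.4 CPM, and widely in the very heavy drinkers, from 9.01 to 24.1 CPM.

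A single test of any difference among the 5 categories called 161 transcripts (1.17%), and DBP was the only clock gene among them (edgeR F test, adjusted p = 0.00696). DBP was 9.78, 10.5, 7.80, 11.0 and 10.9 CPM in heavy drinkers 1 to 5, and 7.91 and 7.97 CPM in the binge drinkers. Very heavy drinkers lay between 7.10 and 18.9 CPM (median 9.67) and controls between 6.18 and 17.6 CPM (median 10.3). The low drinker had 0.532 CPM, or 10 counts, below every other animal. Without this 1 animal the same test gave DBP an adjusted p of 1.0 and called 0 of 13737 transcripts, so the call rests on a category of 1 animal and is not shown to follow drinking. DESeq2 also called ARNTL (adjusted p = 0.0256, where 3.17% were called), for which the low drinker was listed at 0. Between very heavy drinkers and controls DBP differed by 0.22 on the log2 scale (SE 0.21, adjusted p = 0.948).

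The low drinker was unusual for ARNTL and DBP on the low side and for NR1D2 on the high side. ARNTL was listed at 0, as in 2 of the 28 animals in all, and DBP was the lowest of the 28. CLOCK, PER1, PER2, PER3 and NR1D1 were also listed at 0, but so they were in 18, 15, 16, 8 and 24 animals in all. NR1D2 was the highest of the 28 (26.7 CPM) and CRY2 the highest of the drinkers (25.9 CPM). CRY1 lay within the range of the other animals (28.1 CPM). One animal gives no measure of spread within its category.

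**Figure D3:**
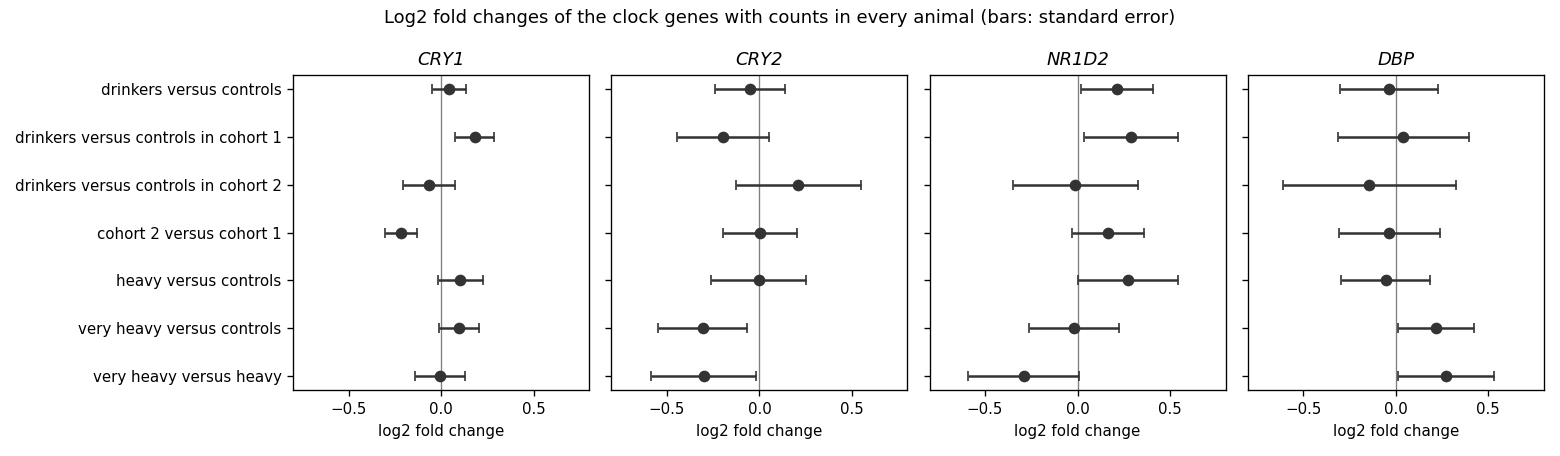
Log2 fold changes (horizontal axes) of CRY1, CRY2, NR1D2 and DBP in 7 comparisons, as points with bars of 1 standard error from edgeR. The value of CRY1 between cohorts is -0.22 with a standard error of 0.08, and no value plotted passed the adjusted threshold.

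The cohorts were compared with drinking as a term, because they were drawn from separate groups of animals. edgeR called 6 transcripts (0.0436%) and none of the clock genes, and without the low drinker 8 transcripts (0.0582%) and again none. Leaving out other single animals gave 0 to 8 transcripts, with 0 called without binge drinker 2, control 11 or very heavy drinker 1. CRY1 was lower in cohort 2 (23.5 ± 3.05 CPM, SD, n = 12) than in cohort 1 (27.0 ± 4.08 CPM, SD, n = 16), with a log2 fold change of -0.22 (SE 0.08) and p = 0.0157 before and 0.323 after adjustment by edgeR, while 9.8% of all transcripts had an unadjusted p under 0.05. Among the drinkers the ranges overlapped in part. Drinkers of cohort 1 ranged from 25.6 to 33.6 CPM with a median of 27.6, those of cohort 2 from 19.1 to 30.3 CPM with a median of 21.9, and 7 of the 9 lay below the lowest drinker of cohort 1. Other lists also had fold changes between the cohorts away from 0, with no gene called: the fitted values of all 8 immediate early genes were higher in cohort 2 (median log2 fold change 0.44, summed level 94.5 to 330 CPM against 68.4 to 289 CPM), as were those of 3 of 4 astrocyte markers (median 0.34, 539 to 1250 CPM against 486 to 786 CPM), and those of 7 of 10 dopamine neuron markers were lower (median -0.53, 40.8 to 1710 CPM against 42.8 to 1860 CPM), beside a median of 0.02 over all transcripts. In cohort 2, 3 of 4 clock-controlled output genes (median 0.72) and 8 of 10 glucocorticoid-responsive genes (median 0.11) were also higher. Of the oligodendrocyte markers, 5 of 6 were lower (median -0.20). The part of these lists in the CRY1 difference was not tested.

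Fitted in drinkers alone, the CRY1 difference between cohorts was -0.31 on the log2 scale (SE 0.10, adjusted p = 0.123), where 0.796% of transcripts were called. In controls alone it was -0.06 (SE 0.16), with the 3 controls of cohort 2 at 24.9, 23.9 and 24.1 CPM, inside the range of 17.6 to 32.1 CPM of the 8 controls of cohort 1. Drinkers exceeded controls by 0.18 (SE 0.11, adjusted p = 0.485) in cohort 1 and differed by -0.07 (SE 0.14) in cohort 2, and the test of the difference between these effects gave -0.25 (SE 0.18, adjusted p = 0.758). NR1D2 measured 16.7 ± 5.96 CPM in cohort 1 and 19.2 ± 3.86 CPM in cohort 2, a log2 fold change of 0.16 (SE 0.20) that was 0.07 without control 11 and 0.11 without very heavy drinker 3. CRY2 and DBP differed by 0.00 (SE 0.20) and -0.03 (SE 0.27). DESeq2 called PER2 between the cohorts (adjusted p = 0.00132, where 0.885% were called), and edgeR did not (adjusted p = 0.216).

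**Figure D4:**
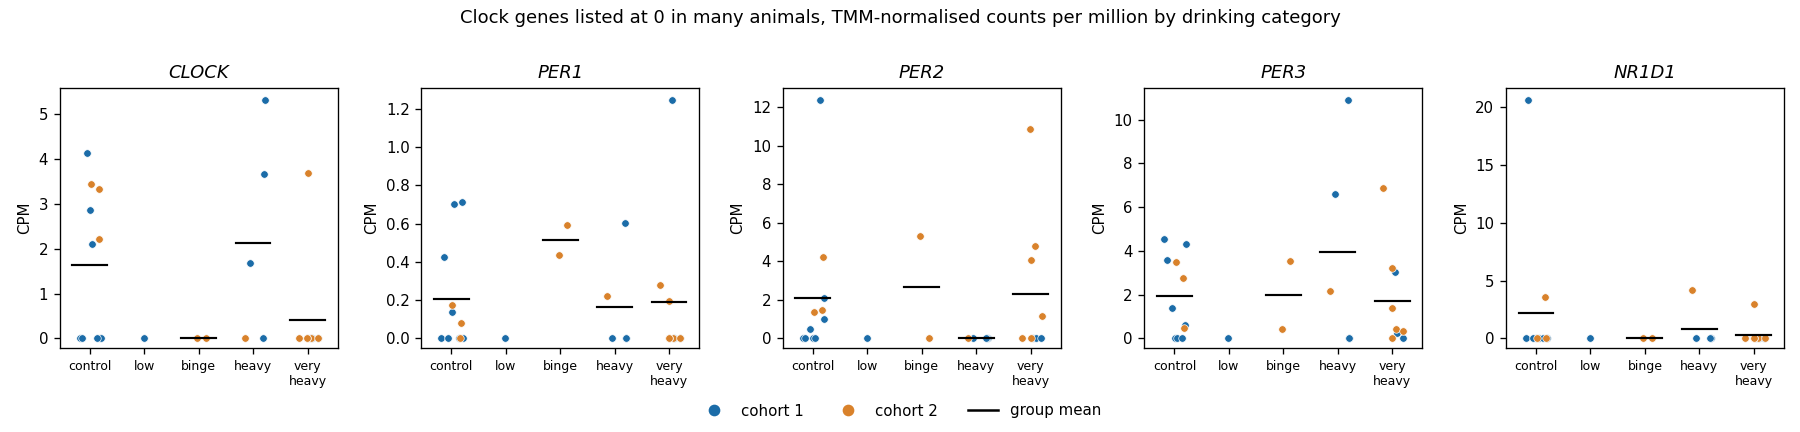
TMM-normalised levels in CPM (vertical axes, 1 scale per gene) of CLOCK, PER1, PER2, PER3 and NR1D1 in 28 animals by drinking category, with 1 point per animal coloured by cohort and a line at the mean of each category with 2 or more animals. PER2 is at 0 in all 5 heavy drinkers, and NR1D1 is above 0 in 4 animals only, with control 8 at 20.6.

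Covariation was examined between the 4 clock genes with counts in every animal, on variance stabilized counts. Over 6 pairs in drinkers and 6 in controls, no pair passed an adjusted p of 0.05 by a permutation test of 100000 resamples, and the lowest adjusted p was 0.801. The highest correlation in drinkers was between CRY2 and NR1D2 (Pearson's r = 0.39, permutation p = 0.117, Spearman's rho = 0.12, permutation p = 0.651, n = 17). Leaving out the 2 animals whose CRY2 was farthest from its median gave -0.05. The lowest in drinkers was between CRY2 and DBP (r = -0.38, permutation p = 0.133, rho = -0.38, permutation p = 0.131), which was -0.17 without the low drinker, -0.19 without the 2 animals farthest in DBP and -0.53 without the 2 farthest in CRY2 (permutation p = 0.0354). NR1D2 and DBP gave r = -0.32 in drinkers (permutation p = 0.213, rho = -0.00), and 0.01 without the low drinker. The 3 pairs of CRY1 lay between -0.08 and -0.01 in drinkers.

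In controls the 6 correlations lay between -0.29, for CRY1 and NR1D2 (permutation p = 0.365, rho = -0.21, n = 11), and 0.16, for CRY1 and DBP (permutation p = 0.632, rho = 0.21). The latter was 0.68 without the 2 controls farthest in CRY1 (permutation p = 0.0413) and -0.08 without the 2 farthest in DBP, and the former was -0.54 and 0.06 without the 2 farthest in CRY1 and in NR1D2. NR1D2 and DBP gave -0.27, which became 0.25 without the 2 animals farthest from the median of NR1D2. No pair differed between drinkers and controls by a permutation test of the difference in r. Over both cohorts the difference was at most 0.48, for CRY2 and NR1D2 (permutation p = 0.284, adjusted p = 0.937), and in cohort 1 at most 0.78, for CRY1 and NR1D2 (permutation p = 0.0737, adjusted p = 0.442).

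**Figure D5:**
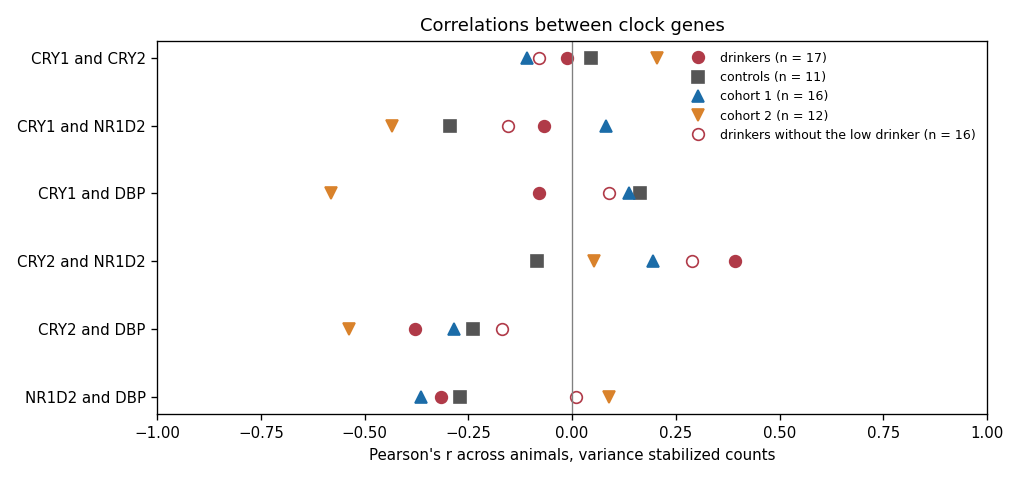
Pearson's r across animals (horizontal axis) for the 6 pairs of clock genes with counts in every animal, in drinkers, controls, cohort 1, cohort 2 and drinkers without the low drinker. Values lie on both sides of 0 for every pair except CRY2 and DBP, which is below 0 in all 5 sets of animals.

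By cohort, CRY1 and DBP gave r = -0.58 in cohort 2 (permutation p = 0.0476, adjusted p = 0.212 over 6 pairs, rho = -0.41, permutation p = 0.183, adjusted p = 0.372, n = 12) and 0.14 in cohort 1 (permutation p = 0.588, n = 16), and leaving out the 2 animals whose CRY1 was farthest from its median gave -0.31 in cohort 2. CRY2 and DBP gave -0.54 in cohort 2 (permutation p = 0.0706) and -0.28 in cohort 1 (permutation p = 0.256), the latter -0.02 without the low drinker. ARNTL, added after its values were seen and without the 2 animals in which it was listed at 0, gave r = 0.46 with NR1D2 over 26 animals (permutation p = 0.0171, adjusted p = 0.342 over 20 relations, rho = 0.48, permutation p = 0.0125, adjusted p = 0.249), and 0.48 without the 2 animals farthest in ARNTL but 0.36 without the 2 farthest in NR1D2 (permutation p = 0.0897).

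Over all 28 animals none of the 4 genes was among the transcripts most like another. Against 7636 transcripts with at least 10 counts in every animal, r with CRY1 ran from -0.70 to 0.75, with 5% of transcripts above 0.41, and CRY2, NR1D2 and DBP gave 0.00, -0.14 and -0.02. NR1D2 ranked 1777 from the top for CRY2, and this was the best rank that any of the 4 genes had for another. Without the low drinker it ranked 2801, and the best rank was then 2515, of CRY1 for DBP. The transcripts whose pattern was most like that of CRY1 were AMD1 (r = 0.75), a polyamine synthesis enzyme, ERRFI1 (0.72), an inhibitor of epidermal growth factor receptor signalling that glucocorticoids induce, and TMED10 (0.70), a cargo receptor of the secretory pathway. ERRFI1 kept 0.69 in cohort 1 and 0.68 in cohort 2, whereas AMD1 was 0.87 and 0.33.

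For CRY2 the most alike were CLUAP1 (0.71), CNPPD1 (0.68) and ASAP2 (0.60), and for NR1D2 they were LUZP1 (0.75), CAMTA1 (0.74) and FHDC1 (0.73). For DBP they were RSF1 (0.75), ABHD13 (0.73) and PSAP (0.73). The low drinker carried a large part of the likeness to RSF1, which was 0.38 without it, and to PSAP, which was 0.52, while ABHD13 remained at 0.74. ASAP2 was 0.75 in cohort 1 and 0.32 in cohort 2, LUZP1 0.88 and 0.47, and PSAP 0.85 and 0.30. These values describe the 28 libraries, which differ in depth and mitochondrial content, and carry no test.

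The levels of the 4 genes were set beside scores of cell type, stress and clock gene lists, the mitochondrial share and the total count, in 64 relations of which none passed an adjusted p of 0.05 (lowest 0.463). The strongest were CRY2 with endothelial markers (r = -0.51, permutation p = 0.00724, rho = -0.43, permutation p = 0.0234, n = 28) and NR1D2 with dopamine neuron markers (r = -0.44, permutation p = 0.0175, rho = -0.39, permutation p = 0.0428). CRY2 with endothelial markers was -0.52 without the 2 animals farthest from the median score, -0.59 in cohort 1 and -0.37 in cohort 2. NR1D2 with dopamine neuron markers was -0.42, -0.47 and -0.32 under the same conditions. The 4 endothelial markers summed to 58.2 to 108 CPM in controls and 34.8 to 128 CPM in drinkers. The part of cell composition in the levels of the clock genes was not tested.

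The other clock genes were 35 further genes in 4 groups, of which 33 passed the count filter. They were the core factors NPAS2, ARNTL2 and the RORs, the bZIP and bHLH factors TEF, HLF, NFIL3, BHLHE40, BHLHE41 and CIART, the kinases, ubiquitin ligases and partners that act on PER and CRY proteins, and outputs such as WEE1 and NAMPT. None of the 33 was called in any of the 9 edgeR comparisons, where between 0% and 1.17% of all transcripts were called. Between 0 and 3 of them had an unadjusted p under 0.05 in each comparison, beside 2% (drinkers against controls in cohort 2) to 14.7% (the same in cohort 1) of all transcripts. Between drinkers and controls their median log2 fold change was 0.06, beside 0.00 over all transcripts. RORB, a nuclear receptor that activates ARNTL, had the lowest p there (log2 fold change 0.47, SE 0.21, edgeR p = 0.0334, adjusted p = 1.0) and is named here because of that value. NPAS2, a paralog of CLOCK that can take its place in neurons, differed by 0.01 (SE 0.15). The glucocorticoid-responsive genes, the immediate early genes and the cell type markers likewise had no gene called in the 9 comparisons, in 5 of which 0% of all transcripts were called.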

How the data were processed

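RNA was extracted from VTA punches, libraries were made with the Nugen Universal Plus mRNA kit and read in pairs. The authors trimmed reads with Trim Galore 0.6.7, quantified them with Salmon 1.9.0 against Mmul_10 and deposited, for each animal, the estimated counts as Salmon gave them. The submitters' notes also name DESeq2 1.36.0. The 1 entry without a symbol (1.16e-05 percent of counts) was left out, and the estimated counts were rounded to whole numbers. The most alike pair of libraries had equal counts for 1.76% of transcripts, so each was kept as its own animal.

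The main test was edgeR 4.0.16 (TMM, quasi-likelihood, a count minimum of 5 reached in 3 or more animals, Benjamini-Hochberg adjustment at 0.05), with DESeq2 1.42.0 as an alternative, in R 4.3.3. SEs of log2 fold changes were derived from the F statistic. CPM are TMM-normalised. Drinkers were compared with controls without a covariate, since the study's methods name none. Cohorts were compared with drinking as a term, and categories with cohort as a term. With 1 library per animal, p-values set a difference against the spread between animals, which also holds differences between punches and libraries. Levels are not compared between genes, since transcript lengths were not used. Correlations used variance stabilized counts from DESeq2, with two-sided permutation tests in Python 3.11.15, numpy 2.4.6 and scipy 1.17.1. Fisher's exact tests on the number of animals with a count were added after the values were seen. On simulated counts for drinkers versus controls over 13314 transcripts, edgeR recovered 69 of 100 changes of 2-fold and 82 of 100 of 4-fold, with 41 other calls. These other calls were a larger share of all calls than the threshold of 0.05 aims at. Changes were planted only above a minimum mean count, which PER1 did not reach. The cohort and category comparisons were not simulated. Promoters, coordinates and transcript numbers came from RefSeq on Mmul_10. The members, gene lists and tests were chosen with earlier results of these data known. Named are all 10 genes, any gene of the other clock lists past the threshold, and for each correlated clock gene the 3 transcripts most like it. No other clock gene passed, and RORB and NPAS2 were named after their values were seen.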

Additional observations from a re-analysis of the deposited data

Results flagged for a closer look

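In groups of 4 to 10 animals, 10 of 47 sets of clock gene levels held an animal whose gap to the next exceeded Dixon's 95% critical value. Chance gives about 1 in 20 sets of normally distributed values, a rate that does not hold here: in 5 of the 10 sets every other animal was at 0, so that any count passes, and some sets share animals. All 10 belong to the 5 genes listed at 0 in 8 or more of the 28 animals. For NR1D1, control 8 had 20.6 CPM with the other controls of cohort 1 at 0, heavy drinker 5 had 4.17 CPM with the other heavy drinkers at 0, and very heavy drinker 7 had 2.93 CPM with the other very heavy drinkers at 0. For CLOCK, very heavy drinker 8 had 3.67 CPM with all other very heavy drinkers and all other drinkers of cohort 2 at 0. For PER2, control 7 had 12.4 CPM, next to 2.12 CPM in cohort 1, and very heavy drinker 7 had 10.9 CPM, next to 4.80 CPM in its category and 5.34 CPM among drinkers of cohort 2. For PER1, very heavy drinker 1 had 1.25 CPM, next to 0.277 CPM, and for PER3, very heavy drinker 5 had 6.86 CPM, next to 3.21 CPM in the same category. No explanation was tested.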

How the results depend on the processing

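No paired analysis was possible because the labels do not say which drinker a caloric control was yoked to, and give no replicate number that groups share. Other size factors, other filters and leaving out mitochondrial transcripts left the number of clock genes called as reported in all 9 comparisons, as did fits within a cohort for the 3 comparisons in which they were run. At 10 or more counts in every animal only 4 of the 10 genes were tested. DESeq2 raised the number called to 2 (DBP and ARNTL) for any drinking category, to 1 (PER2) between cohorts and to 1 (PER2) for drinkers against controls in cohort 1. Without the low drinker, an alternative added after seeing the data, it was 0 for any drinking category, and without control 8 or very heavy drinker 1 it was 1. Leaving out single animals kept 0 clock genes called in the other comparisons in which this was run. Over those runs the log2 fold change of drinkers over controls ranged from -0.0594 to 0.121 for ARNTL, from -0.00035 to 0.0854 for CRY1, from -0.102 to 0.0394 for CRY2, from -0.116 to 0.0702 for DBP and from 0.10 to 0.30 for NR1D2, so only NR1D2 kept its direction in all 28 runs. With cohort as a covariate ARNTL was -0.0424. Between cohorts, CRY1 ranged from -0.25 to -0.19 and NR1D2 from 0.07 to 0.23. Over all transcripts, DESeq2 called 11 for drinkers against controls, 121 between cohorts, 359 for any category, 443 in cohort 1, 54 in cohort 2, 152 for the difference between cohorts, 87 for heavy and 47 for very heavy drinkers against controls and 77 between these, against 0, 6, 161, 132, 0, 2, 0, 0 and 0 with edgeR. In cohort 1 edgeR called 132 transcripts, 5 in a fit of that cohort alone, 43 without control 8 and 45 without very heavy drinker 1, and any category called 0 without the low drinker and 10 at 10 or more counts in every animal. Between cohorts it called 3 with DESeq2 size factors, 10 under the same stricter filter, 105 in drinkers only and 0 in controls only. No alternative for the correlations brought a pair past the adjusted threshold. Depth limits PER1, with at most 20 counts, and the genes at 0 in most animals.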

Other observations

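Over all 45 pairs of the 10 genes in drinkers and in controls, none passed an adjusted p of 0.05. The lowest p belonged to PER1 and PER3 in drinkers (r = 0.62, permutation p = 0.0077, adjusted p = 0.693, rho = 0.70, permutation p = 0.00216, adjusted p = 0.194), which gave 0.55 and 0.53 without the 2 animals farthest in either gene, although PER1 had at most 20 counts. ARNTL and DBP in drinkers gave r = 0.57 (permutation p = 0.0331, adjusted p = 0.829, rho = 0.35), and 0.04 without the 2 animals farthest in DBP. PER2 and NR1D2 in controls gave r = 0.59 (permutation p = 0.0639, adjusted p = 0.911) and rho = 0.77 (permutation p = 0.00751, adjusted p = 0.338). In drinkers the same pair went the other way, with r = -0.32 (permutation p = 0.2145, adjusted p = 0.911) and rho = -0.39. It was -0.70 there without the 2 animals farthest in NR1D2 (permutation p = 0.00387). In controls, NR1D1 and DBP gave r = 0.72 (permutation p = 0.0178, adjusted p = 0.799, rho = 0.61) and NR1D1 and NR1D2 gave -0.75 (permutation p = 0.0368, adjusted p = 0.829, rho = -0.47), and only 2 controls had NR1D1 counts, control 8 with 437 and control 9 with 76. In the low drinker 6 of the 10 clock genes were listed at 0, beside a median of 3 in drinkers and 2 in controls, and 3.5 in cohort 1 and 2 in cohort 2.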
